A study of Mus musculus with 23 samples.

Results

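The 42 genes described here encode the machinery of DNA replication and S phase: the factors that load and fire the replicative helicase, the DNA polymerases and their clamp, the enzymes that supply deoxynucleotides, the factors that rebuild chromatin behind the fork, and regulators of entry into S phase. They were taken by name from the table of 55401 genes, and all 42 were found and passed the filter on low counts, which left 18083 genes for testing. The series measured RNA by 100-base paired-end sequencing in mouse bone marrow-derived macrophages, cells differentiated in culture from bone marrow. Wild-type cells and cells labelled Selenow knock-out (Selenow encodes the small selenoprotein W) were left untreated (0 h) or given 100 ng/ml of lipopolysaccharide (LPS), a bacterial cell wall component sensed by Toll-like receptor 4. Treated cells were collected after 4, 8 and 24 h. Each of the 8 groups of genotype and time has 3 libraries, except the labelled knock-out at 24 h with 2, for 23 in all. The libraries are numbered 1 to 12 (wild-type, in order of time) and 13 to 23 (labelled knock-out). The strain, sex and age of the mice, the deleted part of Selenow and the culture conditions are not given in the sources used here. Untreated cells were sampled at 0 h only, so LPS and time in culture cannot be told apart.

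A cell that enters S phase has loaded rings of the MCM helicase onto replication origins, and it then activates them, copies the DNA and repacks it with new histones. Most of the genes for these steps are switched on together by E2F transcription factors, which the retinoblastoma protein holds in check until cyclin-dependent kinases release them. Bone marrow-derived macrophages divide in culture while their growth factor drives them, and stimulation through Toll-like receptors is known to halt that division. In RNA from a whole culture, fewer cells in S phase and less of these RNAs per cell cannot be told apart.

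The proximal promoters are shown first because most of the genes were lower after LPS and because E2F factors bind close to the start of transcription. RefSeq promoters of the GRCm38.p6 build, all of one length and spanning the start, matched 35 of the 42 genes. E2F sites were searched as TTTCCCGC, TTTCGCGC, TTTGCCGC and TTTGGCGC on both strands, forms that can overlap one another. At least 1 match lay in 14 of the 35 promoters, against 704 of 27025 promoters of all genes (2.60%). Among the roles, a match lay in 3 of 4 genes for helicase loading (Orc1, Cdc6 and Cdt1), in 4 of 5 MCM genes, and in 0 of 5 genes for nucleotide supply. A stretch of 90 bases before the RefSeq start is printed for 6 genes whose match lies outside any annotated exon, 5′ to 3′ on the strand of the gene, with the matches in capitals. For Cdc6 and Uhrf1 that start is an internal one: the annotation used for counting begins these genes further upstream, at 98907801 and 56303321, so the stretches lie within them.
Cdc6 (chr11:98907982-98908071, plus strand): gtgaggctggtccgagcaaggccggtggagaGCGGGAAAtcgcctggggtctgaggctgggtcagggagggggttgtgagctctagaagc
Mcm5 (chr8:75109317-75109406, plus strand): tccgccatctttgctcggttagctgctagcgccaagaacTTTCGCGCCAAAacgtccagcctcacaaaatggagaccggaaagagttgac
Mcm6 (chr1:128359736-128359825, minus strand): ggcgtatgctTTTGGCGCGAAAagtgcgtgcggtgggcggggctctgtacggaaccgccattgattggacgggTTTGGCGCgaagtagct
Pola1 (chrX:93632245-93632334, minus strand): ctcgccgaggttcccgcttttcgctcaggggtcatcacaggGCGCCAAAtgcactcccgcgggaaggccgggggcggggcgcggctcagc
Uhrf1 (chr17:56304087-56304176, plus strand): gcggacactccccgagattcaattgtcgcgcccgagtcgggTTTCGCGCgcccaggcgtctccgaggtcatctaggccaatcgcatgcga
Cdca7 (chr2:72476069-72476158, plus strand): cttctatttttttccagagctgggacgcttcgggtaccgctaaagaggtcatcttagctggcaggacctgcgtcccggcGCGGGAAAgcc
Mcm5 carries a pair of overlapping matches and Mcm6 carries 3. The element TTTGAA, known from promoters of G2 and M phase genes, was found in 3 of the 35 promoters against 20.2% of all, and CCAAT in 20 of 35 against 41.1%. For comparison, 23 genes of G2 and M phase had 18 promoters in the same table, of which 1 held an E2F match and 14 held TTTGAA. A match is a description of the letters, and no binding was measured.

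Read pairs counted per library ranged from 39001456 to 41819953, and the 42 genes took between 0.0571% and 0.428% of them. Levels below are in CPM, the usual rate of read pairs per library, after TMM scaling. A count of 0 in a library would allow a level of up to 0.0769 CPM, by counting error only. Selenow itself was at 103 to 327 CPM in the wild-type libraries and at 39.4 to 135 CPM in 7 libraries labelled knock-out. The libraries labelled knock-out with numbers 13, 16, 19 and 22 held 106, 191, 260 and 181 CPM and so go against their label. A further division crossed the genotypes. Libraries 3, 6, 9, 12, 14, 17, 20 and 23, 1 in every group, deviated from their group means together over 11712 genes other than those listed here (correlations from 0.698 to 0.752 between the genotypes at the same time). These 8 are called the second set and the other 15 the first set. The labels name neither set. Nothing in them ties a library to its own animal or culture, so p-values measure only the spread between libraries.

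The second set held more of the replication RNAs before treatment and in the early hours. In untreated wild-type cells the 42 genes summed to 3207 CPM in library 3 and to 1525 and 1439 CPM in libraries 1 and 2, a ratio of 2.16 to their mean. In untreated labelled knock-out cells library 14 held 2657 CPM against 1176 and 837 CPM in libraries 13 and 15, a ratio of 2.64 to their mean. At 0 h, 41 of the 42 genes were higher in the second-set library than in both others of the group in wild-type (45.1% of all genes tested) and 41 in the labelled knock-out (40.1%). By 24 h the ratios were 0.865 and 0.853, and 26 of the 42 genes were lower in library 12 than in libraries 10 and 11 (41.5% of all genes). Every spread within a group given below includes this division. Among 6 stem and progenitor markers, Cd34 moved with it. Cd34 stood at 12.6 CPM in library 3 and 8.72 CPM in library 14 against 0.591 to 1.97 CPM in the other untreated libraries. The 6 markers summed to 16.2 and 12.04 CPM in libraries 3 and 14 and to 4.37 to 5.56 CPM in the others. Most of that difference was Cd34 alone, so the list as a whole did not move with the sets. The part of such cells in the difference was not tested.

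**Figure D1:**
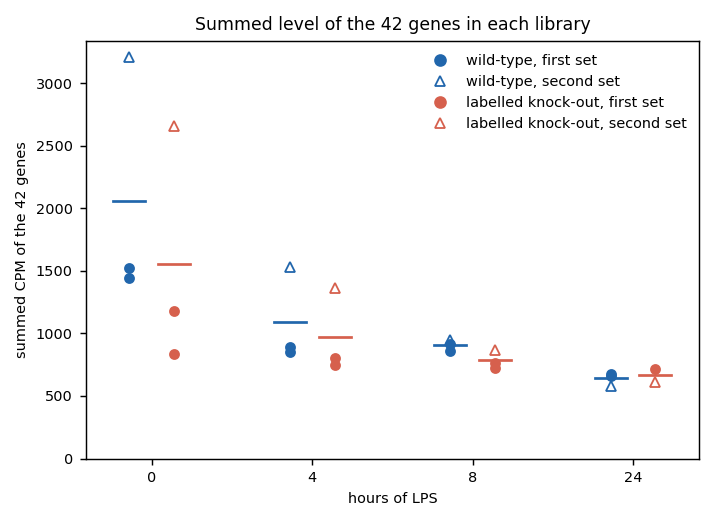
Summed level of the 42 genes (vertical axis, CPM, from 0) in each library by hours of LPS (horizontal axis). Circles are first-set and triangles second-set libraries, blue is wild-type and red the labelled knock-out, and bars are group means. At 0 h the triangles stand at 3207 and 2657 CPM, above every circle, and at 24 h all libraries lie between 580 and 719 CPM.

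LPS was followed by a broad fall of these RNAs. In wild-type cells at 4 h 28 of the 42 genes were called lower and 1, Mcm10, was called higher, by edgeR's quasi-likelihood test at a Benjamini-Hochberg adjusted p under 0.05. Of all genes tested, 62.9% were called in that comparison, and 34.8% were called lower. At 8 h 32 genes were lower and 0 higher (65.4% of all genes called, 30.3% higher and 35.1% lower), and at 24 h 37 were lower and 0 higher (55.1% called, 27.3% lower). The median log2 fold change of the 42 genes was -1.30 at 4 h, -1.77 at 8 h and -2.39 at 24 h, beside -0.12, -0.10 and -0.00 for all genes tested. These 3 comparisons share the same untreated libraries. Of the 6 genes whose promoters are printed above, Cdc6, Uhrf1 and Cdca7 were lower at 4 h, while Mcm5, Mcm6 and Pola1 were first called later. At 24 h, 39 of the 42 genes had every treated library below every untreated one, which 30.6% of all genes tested did.

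Without library 3 the genes called were 19 at 4 h, 22 at 8 h and 32 at 24 h. Within each library set, where nothing can be tested in the second set, 35, 39 and 40 of the 42 genes were lower in both sets at 4, 8 and 24 h than at 0 h. The same counts were not made for all genes. In wild-type cells their median log2 ratio to 0 h at 4, 8 and 24 h was -1.52, -1.36 and -1.74 in the first set and -1.32, -2.26 and -3.32 in the second. In the labelled knock-out it was -1.49, -0.97 and -0.80 in the first set and -1.24, -2.18 and -3.18 in the second. The value of -0.80 rests on library 22 alone, which goes against its label. The medians became lower at each time in the second set and not in the first.

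**Figure D2:**
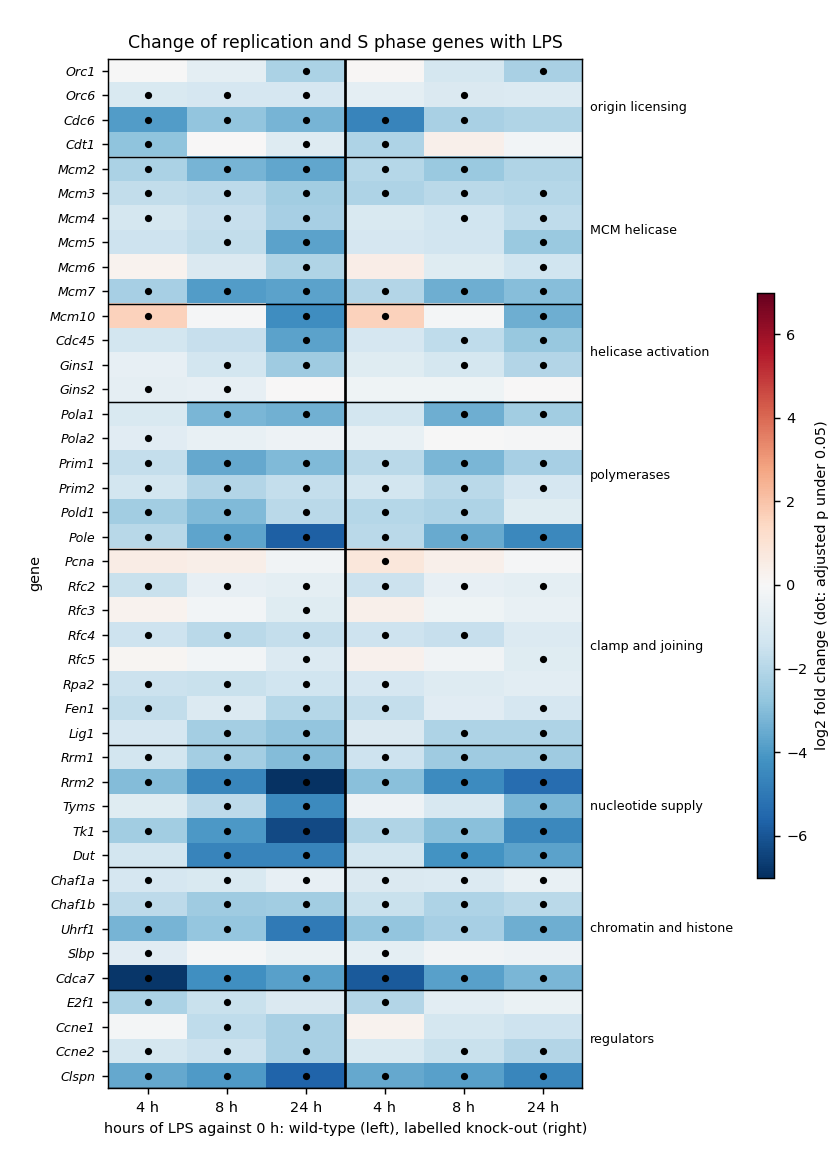
Log2 fold change against untreated cells of the same genotype (colour, red higher and blue lower) for the 42 genes, in rows grouped by role, at 4, 8 and 24 h of LPS in wild-type (left) and labelled knock-out cells (right). Dots mark an adjusted p under 0.05. Blue fills most rows, and Mcm10 is red at 4 h and blue at 24 h in both genotypes.

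Rrm2 and Tk1, both of nucleotide supply, had the largest changes of the 42 genes at 24 h. Rrm2 encodes the small subunit of ribonucleotide reductase, which makes deoxynucleotides and is itself made in S phase. Rrm2 stood at 29.5, 29.03 and 88.5 CPM in the untreated wild-type libraries, 2.30, 3.34 and 12.1 CPM at 4 h, 1.66, 1.73 and 2.85 CPM at 8 h and 0.464, 0.402 and 0.347 CPM at 24 h. Every treated library was below every untreated one, the libraries at 4 and 8 h overlapped, and those at 24 h were lowest of all. Its log2 fold changes (± SE) were -3.04 ± 0.81 at 4 h, -4.56 ± 0.88 at 8 h and -6.91 ± 1.02 at 24 h (adjusted p 0.00288, 0.000177 and 1.57e-05). Tk1, the S phase thymidine kinase of the salvage pathway, stood at 39.5, 35.9 and 82.2 CPM in the untreated wild-type libraries, 5.11, 4.995 and 18.5 CPM at 4 h, 2.74, 2.80 and 4.12 CPM at 8 h and 0.604, 0.558 and 0.818 CPM at 24 h. Its libraries at 24 h were again below all others, and its changes were -2.46 ± 0.62 at 4 h, -4.03 ± 0.68 at 8 h and -6.31 ± 0.78 at 24 h (adjusted p 0.00199, 4.06e-05 and 1.91e-06). Tyms, which makes thymidylate, did not pass the test at 4 h and was at -4.46 ± 0.72 at 24 h (adjusted p 4.09e-05). Dut, which removes dUTP from the pool, was not called at 4 h (-1.30 ± 0.76, adjusted p 0.145) and then fell between 4 and 8 h (-3.34 ± 0.92, adjusted p 0.00591). Rrm1, the large subunit of the reductase, went from 102, 94.5 and 201 CPM to 18.2, 19.6 and 11.5 CPM at 24 h (-3.01 ± 0.59, adjusted p 0.000266). All 5 genes of this role were lower at 24 h in both genotypes.

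Both RNAs fell in the labelled knock-out cells as well. Rrm2 was at 22.3, 74.2 and 9.27 CPM at 0 h, 1.79, 10.8 and 1.45 CPM at 4 h, 1.68, 2.45 and 0.824 CPM at 8 h and 1.06 and 0.656 CPM at 24 h, with log2 fold changes at the 3 treated times of -2.90 ± 0.81, -4.41 ± 0.88 and -5.35 ± 1.11 (adjusted p 0.00417, 0.00028 and 0.000761). Tk1 was at 26.3, 62.9 and 13.7 CPM at 0 h, 3.89, 16.4 and 3.08 CPM at 4 h, 4.42, 5.24 and 3.76 CPM at 8 h and 1.45 and 1.55 CPM at 24 h, with changes of -2.13 ± 0.62, -2.94 ± 0.64 and -4.51 ± 0.83 (adjusted p 0.00563, 0.00064 and 0.000264). At 24 h both labelled knock-out libraries lay above all 3 wild-type libraries for Rrm2 and for Tk1. Neither gene passed the test between the genotypes at that time (1.08 ± 1.13 with adjusted p 0.747, and 1.19 ± 0.81 with adjusted p 0.594). With a term for library set at each time, chosen after seeing the data, Tk1 was called at 1.15 ± 0.33 (SE, adjusted p 0.021), and Rrm2 was not (adjusted p 0.138).

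Of the 6 polymerase genes, 5 were lower at each of the 3 times in wild-type cells, though not the same 5. Pole, the catalytic subunit of the leading-strand polymerase epsilon, stood at 26.7, 25.9 and 67.2 CPM in the untreated wild-type libraries, 5.11, 5.85 and 20.02 CPM at 4 h, 2.05, 1.84 and 5.38 CPM at 8 h and 0.929, 0.960 and 0.372 CPM at 24 h. Every treated library was below every untreated one, with changes of -1.95 ± 0.77 at 4 h, -3.69 ± 0.85 at 8 h and -5.71 ± 0.96 at 24 h (adjusted p 0.0353, 0.000869 and 5.78e-05). Pola1, the catalytic subunit of polymerase alpha, which starts each new strand, stood at 17.02, 17.1 and 36.5 CPM in the untreated wild-type libraries, 4.84, 7.09 and 21.7 CPM at 4 h, 2.23, 1.02 and 4.47 CPM at 8 h and 2.51, 3.48 and 0.917 CPM at 24 h. One treated library at 4 h, number 6, lay above the untreated libraries 1 and 2, and the change passed the test only from 8 h on: -1.07 ± 0.70 at 4 h, -3.19 ± 0.77 at 8 h and -3.35 ± 0.77 at 24 h (adjusted p 0.194, 0.00134 and 0.00122). Pola2, the accessory subunit of the same polymerase, was called at 4 h alone, with -0.79 ± 0.27 at 4 h, -0.52 ± 0.27 at 8 h and -0.37 ± 0.27 at 24 h (adjusted p 0.0148, 0.0938 and 0.25). Prim1 and Prim2, the primase subunits that lay down RNA primers, were lower at all 3 times, with 24 h values of -3.10 and -1.65. Pold1, the catalytic subunit of the lagging-strand polymerase delta, was at 36.6, 32.6 and 82.5 CPM untreated, 6.99, 6.62 and 14.7 CPM at 4 h and 5.24, 5.67 and 6.82 CPM at 8 h, and stood at 16.9, 15.8 and 8.13 CPM at 24 h. The 24 h libraries all lay above those at 8 h, a difference that missed the threshold (1.21 ± 0.50, adjusted p 0.0551).

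All 6 subunits of the MCM2 to MCM7 ring, the helicase that unwinds DNA ahead of the fork, were lower at 24 h in wild-type cells, and they were called at different times. Mcm7 stood at 65.3, 57.5 and 148 CPM in the untreated wild-type libraries, 7.82, 8.16 and 37.8 CPM at 4 h, 5.24, 4.93 and 8.12 CPM at 8 h and 6.87, 7.32 and 5.77 CPM at 24 h. Library 6 was the highest treated library, and none reached the untreated range. The changes were -2.33 ± 0.72 at 4 h, -3.89 ± 0.78 at 8 h and -3.76 ± 0.77 at 24 h (adjusted p 0.00892, 0.000262 and 0.000451). Mcm5 stood at 61.4, 58.3 and 176 CPM in the untreated wild-type libraries, 21.05, 22.3 and 64.1 CPM at 4 h, 26.8, 21.7 and 40.3 CPM at 8 h and 8.20, 8.77 and 4.63 CPM at 24 h. Library 6 overlapped the untreated range at 4 h, where Mcm5 was not called, and the libraries at 24 h were below all others. The changes were -1.46 ± 0.71 at 4 h, -1.73 ± 0.71 at 8 h and -3.77 ± 0.78 at 24 h (adjusted p 0.0812, 0.0403 and 0.000483). Mcm6 was at 85.5, 79.996 and 228 CPM untreated and at 127, 138 and 202 CPM at 4 h, a change of 0.25 ± 0.47 that did not pass (adjusted p 0.665). Its first called change was between 4 and 8 h (-1.27 ± 0.48, adjusted p 0.0356). Mcm2, Mcm3 and Mcm4 were called lower at 4, 8 and 24 h, at -3.66, -2.44 and -2.35 by 24 h. Per kb of exon, untreated wild-type cells held 33.3 ± 17.99 CPM of Mcm3, 28.1 ± 17.95 of Mcm6, 24.6 ± 16.8 of Mcm5, 20.4 ± 11.3 of Mcm7, 16.1 ± 10.4 of Mcm4 and 11.04 ± 8.08 of Mcm2 (SD, n = 3). Each differs from the next in that order by less than its SD.

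Mcm10 went the other way first. Its protein helps to turn the loaded ring into a moving helicase. Mcm10 stood at 16.5, 13.9 and 40.000 CPM in the untreated wild-type libraries, 54.5, 55.7 and 105 CPM at 4 h, 15.9, 11.7 and 37.9 CPM at 8 h and 1.02, 1.09 and 1.36 CPM at 24 h. All 3 libraries at 4 h were above all untreated libraries, and all 3 at 24 h were far below them. The changes were 1.62 ± 0.64 at 4 h, -0.10 ± 0.63 at 8 h and -4.34 ± 0.76 at 24 h (adjusted p 0.0354, 0.895 and 9.78e-05). In the labelled knock-out it was at 12.2, 32.5 and 6.77 CPM at 0 h, 38.6, 94.96 and 25.04 CPM at 4 h, 8.55, 30.5 and 7.20 CPM at 8 h and 1.63 and 1.59 CPM at 24 h, with changes of 1.62 ± 0.64, -0.16 ± 0.64 and -3.41 ± 0.86 (adjusted p 0.0355, 0.844 and 0.00351). The rise there did not separate the libraries, since library 14, untreated, lay above library 18 at 4 h. Cdc45, which joins the ring and the GINS complex in the active helicase, stood at 8.18, 8.75 and 22.9 CPM in the untreated wild-type libraries, 3.37, 2.96 and 9.69 CPM at 4 h, 3.16, 2.44 and 7.35 CPM at 8 h and 0.790, 1.16 and 1.02 CPM at 24 h. It was first called at 24 h in wild-type cells (-3.74 ± 0.81, adjusted p 0.000707). The GINS genes differed: Gins1 fell to 1.21, 1.83 and 1.46 CPM at 24 h from 6.33, 5.55 and 13.8 CPM, while Gins2 stood at 32.6, 33.1 and 46.5 CPM in the untreated wild-type libraries, 22.6, 20.99 and 29.9 CPM at 4 h, 26.5, 27.4 and 22.7 CPM at 8 h and 33.9, 33.5 and 48.5 CPM at 24 h. Gins2 was called lower at 4 and 8 h (-0.61 and -0.55) and higher at 24 than at 8 h (0.60 ± 0.19, adjusted p 0.0139). Reads over 67.3% of the exonic length of Gins2 also lie in exons of Gse1 on the other strand, and counting ignored strand, so the level of Gins2 is uncertain.

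**Figure D3:**
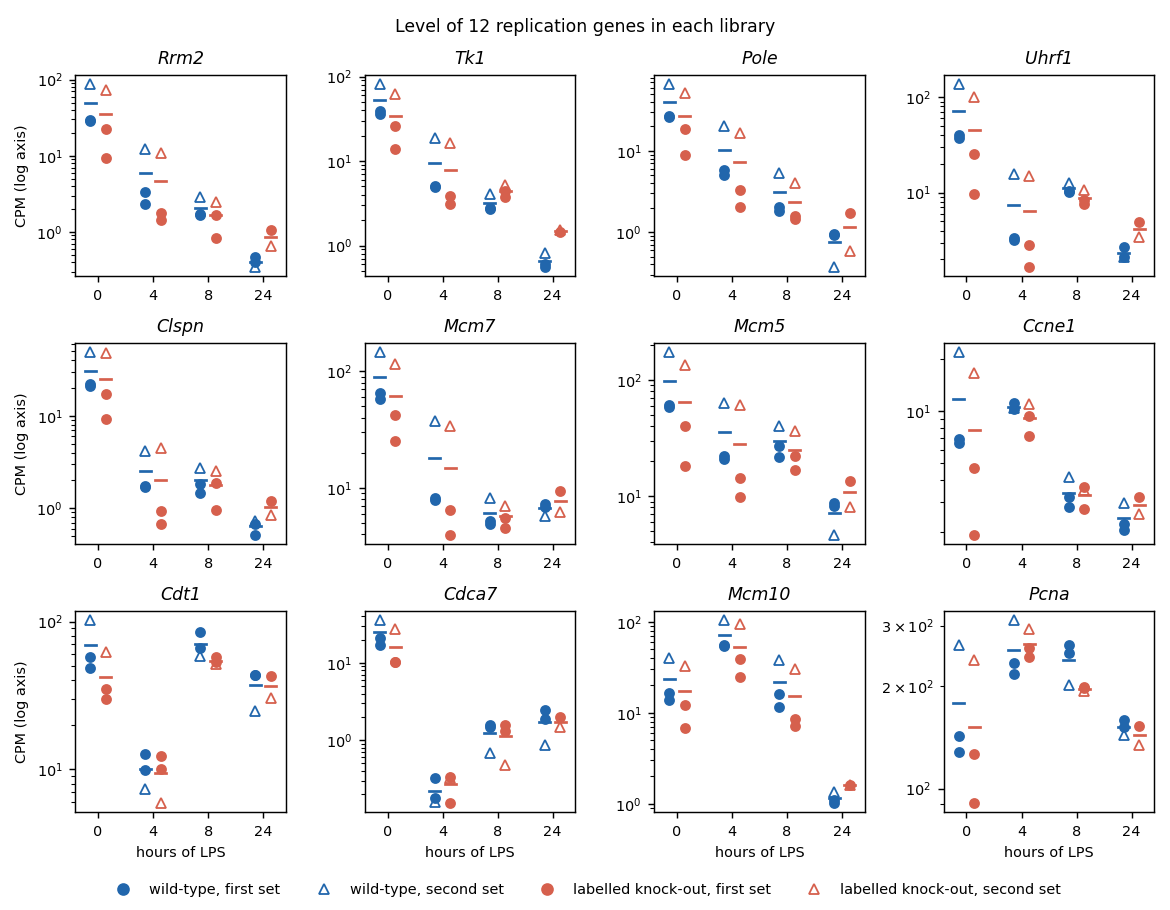
Level of 12 of the genes in every library (vertical axis, CPM on a log scale that differs between panels) by hours of LPS (horizontal axis), with symbols and colours as in the plot of summed levels. In wild-type cells Rrm2, Tk1, Pole and Clspn are lowest at 24 h, Cdt1 and Cdca7 are lowest and Mcm10 is highest at 4 h, and Pcna stays between 128 and 312 CPM.

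Of the genes for helicase loading, Cdt1 and Cdc6 showed a drop at 4 h. Cdt1, which brings the MCM ring to the origin and is otherwise kept in check by degradation, stood at 57.1, 48.8 and 103 CPM in the untreated wild-type libraries, 12.7, 9.96 and 7.36 CPM at 4 h, 85.3, 66.1 and 58.5 CPM at 8 h and 43.3, 43.7 and 24.7 CPM at 24 h. All libraries at 4 h were below all others, and those at 8 h lay within the untreated range. The changes against 0 h were -2.80 ± 0.35 at 4 h, 0.01 ± 0.32 at 8 h and -0.90 ± 0.33 at 24 h (adjusted p 1.14e-06, 0.986 and 0.0249), and the rise from 4 to 8 h was 2.80 ± 0.35 (adjusted p 3.39e-06). In the labelled knock-out Cdt1 was at 34.7, 62.2 and 30.03 CPM at 0 h, 10.1, 5.92 and 12.3 CPM at 4 h, 57.2, 51.8 and 52.95 CPM at 8 h and 42.7 and 30.4 CPM at 24 h, and it too rose from 4 to 8 h (2.52 ± 0.35, adjusted p 1.01e-05). Cdc6, the partner of Cdt1 in loading, dropped from 6.20, 6.22 and 23.01 CPM to 0.567, 0.414 and 1.35 CPM at 4 h (-3.90 ± 0.85, adjusted p 0.000521). Its rise by 8 h passed in the labelled knock-out (2.35 ± 0.94, adjusted p 0.0468) and not in wild-type cells (1.14 ± 0.84, adjusted p 0.282), and the difference between the genotypes in that step was not tested. Orc6, a subunit of the complex that marks origins, stood at 8.72, 7.57 and 15.7 CPM in the untreated wild-type libraries, 3.67, 4.76 and 6.96 CPM at 4 h, 4.18, 4.82 and 5.001 CPM at 8 h and 5.18, 5.07 and 3.99 CPM at 24 h, with changes of -1.05 ± 0.35 at 4 h, -1.19 ± 0.35 at 8 h and -1.17 ± 0.35 at 24 h (adjusted p 0.0134, 0.00607 and 0.00838). Orc1, the subunit that varies with the cell cycle, had the lowest level per kb of the 42 genes in untreated wild-type cells (1.56 ± 0.807 CPM, SD, n = 3). It was called lower at 24 h alone (-2.21 ± 0.56, adjusted p 0.00276).

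Cdca7, which helps a chromatin remodeller and is a target of E2F and Myc, had the largest change of the 42 genes at 4 h. It stood at 20.9, 16.996 and 36.1 CPM in the untreated wild-type libraries, 0.179, 0.325 and 0.159 CPM at 4 h, 1.59, 1.47 and 0.677 CPM at 8 h and 2.48, 1.88 and 0.867 CPM at 24 h. The libraries at 4 h were all under 1 CPM, and those at 8 and 24 h stayed below the untreated ones. The changes were -6.79 ± 0.62 at 4 h, -4.30 ± 0.51 at 8 h and -3.82 ± 0.49 at 24 h (adjusted p 1.96e-08, 7.31e-07 and 3.29e-06), with a rise of 2.49 ± 0.64 between 4 and 8 h (adjusted p 0.00364). The labelled knock-out followed the same course, with 10.3, 27.6 and 10.1 CPM at 0 h, 0.154, 0.325 and 0.339 CPM at 4 h, 1.33, 0.484 and 1.59 CPM at 8 h and 1.98 and 1.48 CPM at 24 h. Uhrf1, which brings the maintenance methyltransferase to freshly copied DNA, stood at 40.3, 37.6 and 139 CPM in the untreated wild-type libraries, 3.34, 3.22 and 15.7 CPM at 4 h, 10.4, 10.2 and 12.6 CPM at 8 h and 2.14, 2.72 and 2.13 CPM at 24 h. Libraries 4 and 5 were below those at 8 h and library 6 above them, and the libraries at 24 h were lowest. The changes were -3.27 ± 0.85 at 4 h, -2.70 ± 0.83 at 8 h and -4.95 ± 0.93 at 24 h (adjusted p 0.00244, 0.00776 and 0.000188). Chaf1a and Chaf1b, subunits of the histone chaperone that loads new nucleosomes behind the fork, were called lower at all 3 times, and at 24 h Chaf1b was at -2.45 ± 0.53 and Chaf1a at -0.59 ± 0.14. Chaf1a was also higher at 24 than at 8 h in both genotypes (0.48 and 0.46), though 52.5% of its exonic length is shared with Ubxn6 on the other strand. Slbp, which binds the stem-loop of histone mRNAs, stood at 24.9, 23.3 and 39.5 CPM in the untreated wild-type libraries, 16.5, 17.9 and 15.6 CPM at 4 h, 27.4, 27.5 and 24.5 CPM at 8 h and 20.8, 22.3 and 20.8 CPM at 24 h. Its libraries at 4 h were all below the others, and its change was -0.81 ± 0.21 at 4 h (adjusted p 0.00253) and 0.66 ± 0.21 from 4 to 8 h (adjusted p 0.0148).

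The 8 genes of the clamp group did not move as one. Pcna, the sliding clamp that tethers polymerases and serves DNA repair as well, had the highest level per kb of the 42 genes in untreated wild-type cells, at 74.1 ± 30.7 CPM (SD, n = 3). It stood at 143, 128 and 263 CPM in the untreated wild-type libraries, 217, 234 and 312 CPM at 4 h, 263, 250 and 201 CPM at 8 h and 152, 159 and 144 CPM at 24 h. Library 3 lay above both others at 0 h and inside the treated range. Pcna was called at no time in wild-type cells in the fit without library sets: 0.52 ± 0.27 at 4 h, 0.42 ± 0.27 at 8 h and -0.23 ± 0.27 at 24 h (adjusted p 0.111, 0.19 and 0.489). Its log2 ratio to 0 h in the first and second set was 0.73 and 0.25 at 4 h, 0.92 and -0.39 at 8 h, and 0.19 and -0.87 at 24 h. In the labelled knock-out, with 126, 238 and 90.8 CPM at 0 h, 259, 293 and 243 CPM at 4 h, 196, 193 and 198 CPM at 8 h and 153 and 134 CPM at 24 h, the change at 4 h was called (0.81 ± 0.28, adjusted p 0.0163). Rfc2, Rfc3, Rfc4 and Rfc5 are subunits of the loader that opens the clamp, and their times of call differed. Rfc2 stood at 125, 117 and 112 CPM in the untreated wild-type libraries, 38.99, 35.9 and 46.6 CPM at 4 h, 89.2, 88.6 and 62.1 CPM at 8 h and 81.8, 80.7 and 55.4 CPM at 24 h. All libraries at 4 h were below all others, with changes of -1.54 ± 0.15 at 4 h, -0.56 ± 0.15 at 8 h and -0.70 ± 0.15 at 24 h (adjusted p 4.36e-08, 0.00241 and 0.00051) and 0.98 ± 0.15 from 4 to 8 h (adjusted p 2.76e-05). Rfc4 was lower at all 3 times, while Rfc3 and Rfc5 were called at 24 h alone, at -0.82 and -0.94. Rpa2, which coats single-stranded DNA, was lower at 4, 8 and 24 h (-1.49, -1.55 and -1.40). Exons of a partner gene on the other strand overlap 10.7% to 17.4% of Ccne2, Rfc2, Rfc4, Rfc5 and Orc1. For Slbp, Mcm7, Orc6, Cdc45 and Lig1 the overlap is 5.79% to 7.80%, and Mcm7 shares a further 1.45% with Cops6. All these levels can hold reads of the partner genes too.

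The genes that finish the lagging strand fell too. Lig1, the ligase that seals its fragments, stood at 49.5, 46.6 and 121 CPM in the untreated wild-type libraries, 14.4, 18.1 and 64.6 CPM at 4 h, 11.4, 12.04 and 17.6 CPM at 8 h and 11.5, 10.98 and 9.69 CPM at 24 h. Library 6 again overlapped the untreated libraries at 4 h, and the change was called from 8 h on: -1.16 ± 0.70 at 4 h, -2.40 ± 0.73 at 8 h and -2.76 ± 0.74 at 24 h (adjusted p 0.158, 0.00771 and 0.00413). Fen1, the nuclease that trims the flaps of those fragments, stood at 35.8, 37.7 and 80.1 CPM in the untreated wild-type libraries, 12.99, 12.6 and 20.8 CPM at 4 h, 23.7, 23.99 and 31.9 CPM at 8 h and 13.9, 15.3 and 9.66 CPM at 24 h, with changes of -1.73 ± 0.40 at 4 h, -0.95 ± 0.40 at 8 h and -1.98 ± 0.41 at 24 h (adjusted p 0.00106, 0.0424 and 0.000447). As 78.8% of the exonic length of Fen1 overlaps Gm10143 on the other strand, its level is uncertain.

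Clspn had the largest change of the 4 regulators at 4, 8 and 24 h in wild-type cells. Its protein, claspin, travels with the fork and passes replication stress to the checkpoint kinase CHK1. Clspn stood at 22.3, 20.9 and 49.4 CPM in the untreated wild-type libraries, 1.73, 1.71 and 4.16 CPM at 4 h, 1.84, 1.44 and 2.71 CPM at 8 h and 0.673, 0.513 and 0.719 CPM at 24 h. Every treated library was below every untreated one, with changes of -3.60 ± 0.66 at 4 h, -3.95 ± 0.68 at 8 h and -5.60 ± 0.75 at 24 h (adjusted p 0.000109, 5.4e-05 and 5.38e-06). Ccne1, cyclin E1, which drives entry into S phase, stood at 6.91, 6.53 and 22.03 CPM in the untreated wild-type libraries, 10.3, 11.1 and 10.4 CPM at 4 h, 2.80, 3.20 and 4.18 CPM at 8 h and 2.07, 2.23 and 2.95 CPM at 24 h. At 4 h all 3 libraries lay between the first-set and the second-set untreated libraries, so the change was -0.15 ± 0.52 (adjusted p 0.818). Within the first set alone Ccne1 was called higher at 4 h, at 0.71 (adjusted p 0.0203). It was lower at 8 and 24 h, at -1.80 ± 0.54 and -2.29 ± 0.55 (adjusted p 0.0073 and 0.00182). Ccne2, cyclin E2, was lower at all 3 times. E2f1, the activating E2F that switches on many genes of this list and its own, was at 34.4, 36.2 and 82.3 CPM untreated, 5.70, 6.21 and 20.7 CPM at 4 h and 24.5, 24.5 and 26.4 CPM at 24 h. It was lower at 4 and 8 h (-2.23 and -1.55) and did not pass at 24 h (-1.02 ± 0.51, adjusted p 0.101).

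By the time of their calls against 0 h in wild-type cells, 23 of the 42 genes were lower at 4, 8 and 24 h. A further 7 genes, Ccne1, Dut, Gins1, Lig1, Mcm5, Pola1 and Tyms, were first called at 8 h, and 5, Cdc45, Mcm6, Orc1, Rfc3 and Rfc5, at 24 h. Calls present early and absent at 24 h numbered 4: E2f1 and Gins2 at 4 and 8 h, and Pola2 and Slbp at 4 h. Cdt1 was called at 4 and 24 h and not at 8 h, Mcm10 rose and then fell, and Pcna was never called. From 4 to 8 h 4 genes rose (Cdt1, Cdca7, Rfc2 and Slbp) and 7 fell, where 46.7% of all genes were called. From 8 to 24 h 2 rose (Gins2 and Chaf1a) and 11 fell, where 44.9% were called. Without library 6 the first of these comparisons called 5 of the 42 genes, and without library 9 the second called 5.

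Cells labelled knock-out showed fewer calls in the fit without library sets. At 4 h 23 genes were lower and 2 higher (Mcm10 and Pcna), with 62.1% of all genes called and 34.1% called lower. At 8 h 26 were lower and 0 higher (60.2% called, 31.9% lower), and at 24 h, with 2 libraries, 28 were lower and 0 higher (43.4% called, 20.8% lower). Median log2 fold changes were -1.28, -1.48 and -2.02. Of the genes lower in wild-type cells, 23 of 28 at 4 h, 25 of 32 at 8 h and 28 of 37 at 24 h were also lower in the labelled knock-out, which called 23, 26 and 28. The genes lower in wild-type cells alone at 24 h were Ccne1, Cdc6, Cdt1, Mcm2, Orc6, Pold1, Rfc3, Rfc4 and Rpa2. At 24 h the interaction of genotype and LPS called none of them in the fit without library sets. With a term for library set at each time it called Cdc6, Cdt1, Mcm2, Pold1, Rfc4 and Rpa2. From 4 to 8 h Cdc6, Cdt1, Rfc2, Cdca7 and E2f1 rose and 7 genes fell in the labelled knock-out (47.2% called). From 8 to 24 h Chaf1a rose and Mcm10 and Rfc5 fell (34.7% called), and without library 22 no gene was called. Terms for library set raised the counts of these later steps. With a term for set at each time the calls from 4 to 8 h were 31 in wild-type cells (9 higher, 22 lower) and 31 in the labelled knock-out (9 higher, 22 lower). From 8 to 24 h they were 28 (5 higher, 23 lower) and 25 (9 higher, 16 lower). Of all genes, 60.8%, 60.6%, 59.7% and 53.9% were called in these 4 comparisons. Against 0 h at 4, 8 and 24 h, that fit called 37, 39 and 41 genes in wild-type cells when library 1 was left out. When library 13 was left out it called 40, 38 and 38 in the labelled knock-out. The share of all genes was not counted in these leave-one-out fits. In the fit without library sets, leaving out libraries 13, 16, 19 and 22 left fewer labelled knock-out calls. They were 13 at 4 h and 21 at 8 h, all lower. At 24 h that fit rests on library 23 alone, so its count is left out. Without library 14 the calls were 16 at 4 h and 16 at 8 h, and without library 23 they were 7 at 24 h, where library 22 then stands alone and is assumed to vary like the other groups.

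Between the genotypes, 0 of the 42 genes were called at 0, 4, 8 or 24 h or in the average over times by edgeR's quasi-likelihood test. Of all genes tested, 1.52% were called at 0 h (0.653% higher and 0.863% lower in the labelled knock-out), 1.24% at 4 h (0.503% and 0.735%) and 2.2% at 8 h (0.796% and 1.4%). The share was 1.19% at 24 h (0.608% and 0.586%) and 6.27% in the average (3.13% and 3.14%). At an unadjusted p under 0.05 the genes numbered 2 at 0 h (Cdt1 and Tyms), 0 at 4 h, 2 at 8 h (Orc1 and Rfc5), 0 at 24 h and 4 in the average (Orc1, Mcm3, Rfc5 and Tyms). DESeq2 called 0 at each time and 1, Orc1, in the average. The median log2 difference of the 42 genes, labelled knock-out minus wild-type, was -0.42 before treatment. After 4, 8 and 24 h it was -0.26, -0.20 and 0.23, and the medians of all genes lay between -0.00 and 0.01. Orc1 came nearest to a call in the average, at -0.93 ± 0.29 (adjusted p 0.0677). At 0 and 4 h no gene separated the genotypes without overlap of the libraries (10.6% of all genes higher and 10.2% lower at 0 h, 6.98% and 5.34% at 4 h). At 8 h Cdt1, Mcm3, Pcna, Rfc5 and Slbp were lower without overlap (11.3% of all genes higher, 10.1% lower). At 24 h, with 2 libraries, 11 genes were higher and Orc1 and Rfc5 lower (16% and 15.5% of all genes). At 0 h Tyms stood at 22.8, 20.9 and 51.6 CPM in wild-type and 8.38, 24.5 and 4.67 CPM in labelled knock-out libraries (-1.34 ± 0.62, adjusted p 0.381). In simulated counts of 18083 genes for the genotypes at 0 h, this test recovered 13.4% of genes changed 1.5-fold, 43.3% of those changed 2-fold and 80.3% of those changed 4-fold. The changed genes were drawn at random from all genes and without library sets, so these rates do not measure recovery of the 42 genes. Interactions of genotype and LPS called 0 of the 42 genes at 4, 8 and 24 h (0.0442%, 0.0442% and 0% of all genes, with 0.00553% higher and 0.0387% lower at both 4 and 8 h), with 0 at an unadjusted p under 0.05 in each.

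Since each of these groups holds libraries of both sets, the genotypes were also compared within sets. At 0 h all 42 genes were lower in libraries 13 and 15 than in libraries 1 and 2 by their means, and 40 were lower in library 14 than in library 3. The medians of the log2 differences were -0.69 and -0.27. At 24 h 24 genes were higher in the labelled knock-out in both sets and 6 lower in both, with medians of 0.29 and 0.22. Such counts within sets were not made for all genes, so the share of all genes beside them is not known. Markers of other cells differed between the genotypes at some times. Those of stromal cells summed to 23.97, 34.5, 80.6 and 38.96 CPM in libraries 14, 17, 20 and 23, Col1a1 foremost, and to 1.42 to 9.49 CPM in the others. Within the first set at 0 h they were at 2.24 and 4.92 CPM in libraries 13 and 15 and at 1.42 and 1.77 CPM in libraries 1 and 2. Later the genotypes overlapped in the first set, with 2.35 and 8.59 CPM against 2.12 and 3.90 CPM at 4 h. At 24 h library 22 was at 6.41 CPM against 5.76 and 9.49 CPM. Markers of neutrophil precursors summed to 209 to 235 CPM in labelled knock-out and 126 to 160 CPM in wild-type libraries at 0 h, and to 148 to 177 and 88.2 to 116 CPM at 4 h, without overlap of the genotypes. These sums overlapped at 8 h, at 77.8 to 119 and 59.5 to 87.9 CPM, and at 24 h, at 171 to 196 and 127 to 334 CPM. The B, T and natural killer cell list summed to 147 to 180 and 108 to 146 CPM at 0 h. The part of such cells in the differences was not tested.

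A fit with a term for the set at each time, chosen after seeing the data, called 23 genes lower and 0 higher in the labelled knock-out at 0 h, where 13.6% of all genes were called. The first set alone called 22 lower (6.56% of all genes), and the fit with set terms without libraries 13, 16, 19 and 22 called 26 lower (13.1%). All 3 fits called the same 21 genes: Ccne1, Cdc45, Cdca7, Cdt1, Chaf1b, E2f1, Fen1, Mcm2, Mcm3, Mcm4, Mcm5, Mcm6, Mcm7, Orc1, Pola2, Pold1, Pole, Rpa2, Tk1, Tyms and Uhrf1. Tyms had the largest difference, -1.51 ± 0.19 (SE, adjusted p 7.56e-05) in the fit with set terms. Mcm2 was at -0.84 ± 0.18 (SE, adjusted p 0.00471), with 44.6, 43.99 and 142 CPM in libraries 1, 2 and 3 and 27.7, 104 and 14.9 CPM in libraries 13, 14 and 15. E2f1 was at -0.48 ± 0.09 (SE, adjusted p 0.00297), with 34.4, 36.2 and 82.3 CPM against 29.1, 58.8 and 21.6 CPM. The sets were found in these same libraries, so p-values of such fits may be too small. Left out in turn, libraries moved the count at 0 h between 12, without library 1, and 29, without library 13, with 13 genes called without library 15.

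Later differences in the fit with set terms were fewer. At 4 h 3 genes were lower (Mcm3, Orc1 and Tyms, 4.66% of all genes called), and at 8 h Cdt1, Mcm3, Orc1, Rfc5 and Tyms were lower and E2f1 was higher (16.2% called). Orc1 was lower at 0, 4 and 8 h, with -1.40 ± 0.24 (SE, adjusted p 0.000673) at 8 h. At 24 h 5 genes were higher, Fen1, Mcm2, Pola1, Pold1 and Tk1, and 0 lower (19.5% called). The shares of the 42 genes called at 8 and 24 h were below those of all genes, as was the share in the average over times. The first set alone called Mcm2, and the fit without libraries 13, 16, 19 and 22 called Fen1 and Pold1 higher and Gins2 lower, so no gene was called in all 3. In the average over times 8 genes were lower (23.9% called), and Mcm3, Orc1, Rfc5 and Tyms were called in all 3 fits.

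**Figure D4:**
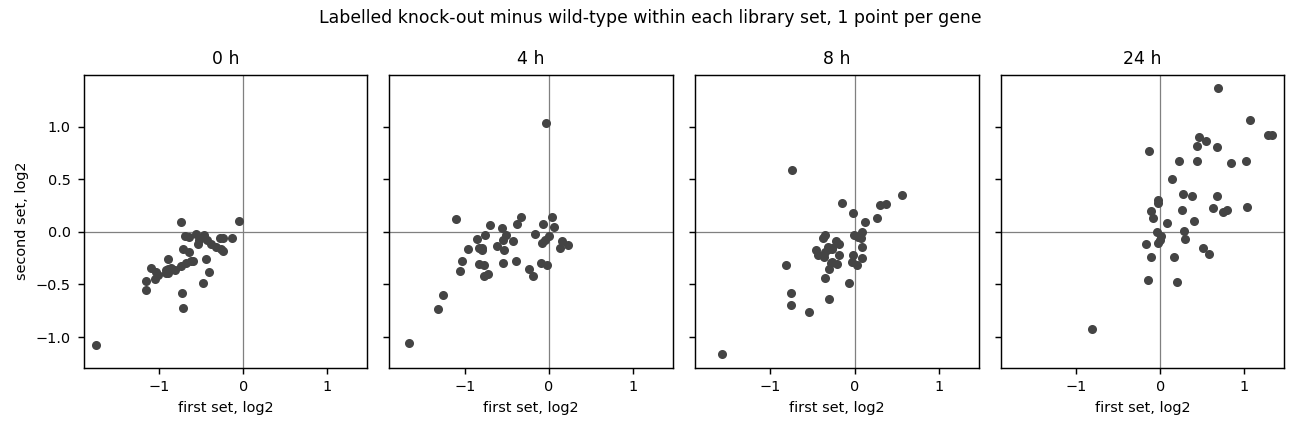
Log2 difference of labelled knock-out minus wild-type for each of the 42 genes, in first-set libraries (horizontal axis) and second-set libraries (vertical axis), at 0, 4, 8 and 24 h. At 0 h 40 points lie below 0 on both axes, and at 24 h 24 points lie above 0 on both.

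The interaction at 24 h asks whether the change from 0 h differed between the genotypes. In the fit with set terms it called 24 of the 42 genes (16.4% of all genes called, 9.41% higher). In all 24 the change from 0 h was higher in the labelled knock-out, which need not mean a higher level at 24 h. The first set alone called 9 (4.31%), and the fit without libraries 13, 16, 19 and 22 called 15 (15.8%), with 7 genes in all 3: Fen1, Mcm2, Mcm5, Mcm6, Pold1, Tk1 and Uhrf1. Mcm2, at 6.71, 8.21 and 3.25 CPM in wild-type and 15.7 and 6.77 CPM in labelled knock-out libraries at 24 h, was at 1.91 ± 0.28 (SE, adjusted p 0.000762) and Pold1 at 1.27 ± 0.18 (SE, adjusted p 0.00067) in the fit with set terms. The 7 genes were all among the 21 called lower in the labelled knock-out at 0 h, and the interaction uses the same untreated libraries. The labelled knock-out has only libraries 22 and 23 at 24 h, 1 in each set, and library 22 goes against its label. The first-set fit rests on library 22 alone at that time, and the fit without it on library 23 alone, each assumed to vary like the other groups. The count was 6 without library 12, 7 without library 23, 11 without library 22 and 13 without library 1. At 8 h 5 genes were called, E2f1, Pola2, Pold1, Rpa2 and Tk1, in all 3 fits. That share of the 42 was close to the 12.7% of all genes called with set terms. At 4 h 0 were called (0.874%).

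Other genes of the cell cycle were followed from fixed lists, chosen by function with results of these data known. Of 46 further replication genes, 25 were lower and 10 higher in wild-type cells at 4 h, and 27 lower and 7 higher at 24 h (median -0.93). The 46 summed to 1486 to 2360 CPM at 0 h, 2985 to 3147 CPM at 4 h and 1713 to 2058 CPM at 24 h. These sums include Samhd1, whose large rise is given below, so they do not show a rise of the 46 as a group. Top2a, the topoisomerase that untangles copied DNA, was at -6.17 ± 0.63, and Ticrr, Asf1b and Dscc1, which act in origin firing, histone supply and clamp loading, at -5.82, -4.24 and -6.58. Samhd1 and Dck were named after their values were seen. Samhd1, which destroys deoxynucleotides in resting cells, rose to 1845, 1958 and 1525 CPM at 4 h from 219, 219 and 215 CPM (3.03 ± 0.25, adjusted p 5.59e-09) and was at 1.98 ± 0.24 at 24 h. Dck, the salvage kinase for deoxycytidine, rose by 1.71 ± 0.24 at 4 h (adjusted p 5.03e-06). Both act on the deoxynucleotide pool, as Rrm2, Tk1 and Tyms do.

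Of 20 genes of E2F and retinoblastoma control, 16 were lower at 4 h and 3, E2f5, Rbl1 and Lin9, higher, and 12 lower and 1 higher at 24 h (median -0.96). E2f7, a repressor of E2F targets, was at -8.14 ± 0.995, Mybl2 at -5.69 ± 1.02, Ccna2, cyclin A2, at -5.07 ± 0.46 and Tfdp2, a partner of E2F proteins, at -2.63 ± 0.32. Lin37, a subunit of the repressor complex of resting cells, was the 1 gene higher (0.48 ± 0.10, adjusted p 0.000538). Of 18 repair genes that act in S phase, 16 were lower and 1, Atrip, higher at 24 h, with Fancd2 at -6.10 ± 0.82, Exo1 at -5.42 ± 0.82, Rad51ap1 at -5.38 ± 0.79 and Chek1 at -4.01 ± 0.80. The summed level of these 18, which follows the most abundant of them, did not simply fall in wild-type libraries. It was 307 to 530 CPM at 0 h, 708 to 829 CPM at 4 h, 544 to 633 CPM at 8 h and 320 to 416 CPM at 24 h. All 23 genes of G2 and M phase were lower at 24 h, with a median of -6.31 beside -2.39 for the 42 replication genes. Their summed level was 1368 to 2010 CPM in untreated wild-type libraries and 35.98 to 52.4 CPM at 24 h, when the 42 replication genes summed to 580 to 679 CPM.

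Macrophage markers summed to between 15739 and 32421 CPM in every library, and each of the 12, Adgre1 and Csf1r among them, was detected in all 23. Markers of other cells moved with time. Those of neutrophil precursors (14 of 15 tested) were called lower in 8 cases at 4 h and 12 at 24 h in wild-type cells. Ngp went from 38.4, 45.2 and 46.6 CPM to 0.372, 0.424 and 0.471 CPM at 24 h, and Mmp8 alone rose. The list summed to 126 to 160 CPM at 0 h and 127 to 334 CPM at 24 h. Stem and progenitor markers summed to 5.24 to 16.2 CPM in untreated wild-type libraries and to 1.34 to 1.81 CPM at 24 h, with Mecom at or near 0 throughout. The B, T and natural killer cell list, of which Ighm makes up most, summed to 108 to 146 CPM and then to 0.491 to 1.29 CPM, with Cd3e and Ncr1 at or near 0 throughout. Dendritic cell markers summed to 2.09 to 2.77 CPM untreated and 17.9 to 29.6 CPM at 4 h, where Xcr1 rose. Erythroid markers stayed at or under 1.63 CPM and those of mast cells and basophils at or under 0.315 CPM, with Fcer1a at 0 in all libraries. The part of these cells in the falls was not tested.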

How the data were processed

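RNA of 23 libraries was counted per gene. Per the file headers, the deposited counts are whole read pairs per gene, made with featureCounts 2.0.1 on exons of Ensembl 101 (GRCm38), without strand, with reads of overlapping genes counted for each and multimapping reads left out. HISAT2 and DESeq2 are named in the submitters' processing notes, HISAT2 without a version. Here counts were scaled by TMM, genes with low counts were dropped by edgeR's filterByExpr, and 1 quasi-likelihood model (edgeR 4.0.16 in R 4.3.3) with a mean for each of the 8 groups gave all comparisons. P-values were adjusted by Benjamini-Hochberg over all 18083 genes and called under 0.05. SE is the log2 fold change divided by the root of F. The test was checked on simulated counts. Samples were grouped by their labels.

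The 42 genes, the gene lists and the library sets were chosen with earlier results of these data known. By rule, genes named with values were the 2 per role with the largest called change at 24 h in wild-type cells. These needed a mean of at least 5 CPM over all libraries. Added to them were genes called against the majority of the 42 in a wild-type comparison, and the largest in each list. Values by library were also printed for genes outside this rule, among them Pcna, E2f1, Rrm1, Pold1, Mcm6, Cdc6 and Gins1. Alternatives were limma-voom (limma 3.58.1), DESeq2 1.42.0, other scalings, filters and thresholds, leaving out libraries, and fits by library set. The terms for set at each time were chosen after seeing the data. Promoter motifs were exact matches.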

Additional observations from a re-analysis of the deposited data

How the results depend on the processing

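No paired analysis was possible because the replicate numbers run on from 1 to 23 and no number is shared by groups. Fits with the library set as a term, which use no replicate number, are given below. In the values below, WT is wild-type, KO is labelled knock-out, and counts are of the 42 genes called. At an adjusted p under 0.01, counts were 19 for WT 4 h against 0 h, 4 for WT 8 h against 4 h, 4 for WT 24 h against 8 h, 14, 17 and 12 for KO at 4, 8 and 24 h against 0 h, and 3 for KO 8 h against 4 h. Tested against a fold of 1.5 they were 18, 4 and 2 for the same WT comparisons, 16 and 15 for KO at 4 and 24 h against 0 h, 4 for KO 8 h against 4 h and 1 for KO 24 h against 8 h. Limma-voom gave 7 and 8 for the later WT steps (8 h against 4 h, 24 h against 8 h) and 7 for KO 8 h against 4 h. DESeq2 gave 20 for WT and 6 for KO at 24 h against 8 h and 1 for the genotype average, as did the fit without a filter. With only the groups compared, the counts were 23 for WT and 11 for KO at 24 h against 8 h, and 11 and 16 for KO at 4 and 24 h against 0 h.

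Without libraries 13, 16, 19 and 22 the later WT steps had 7 and 7. KO 4 h against 0 h had 13 and KO 8 h against 4 h had 3. KO at 24 h is then library 23 alone, so its counts in this fit are left out. A single term for library set gave 19 and 20 for the later WT steps, 6 for KO 24 h against 8 h, and 1, 1 and 3 between genotypes at 0 h, at 8 h and in the average. The first set alone gave 25 and 27 for the later WT steps and 23 and 14 for the later KO steps. Between genotypes it gave 22, 5, 7 and 1 by time, 7 in the average, and 5 and 9 for the interactions at 8 and 24 h. Set terms at each time gave 31 and 28 for the later WT steps, 31 and 25 for the later KO steps, and 39 for KO 4 h against 0 h. Between genotypes they gave 23, 3, 6 and 5 by time, 8 in the average, and 5 and 24 for the interactions. The same without libraries 13, 16, 19 and 22 gave, in the same order, 31 and 27, 27 and 14, and 39, and between genotypes 26, 2, 3 and 3, then 7, then 5 and 15.

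In the first set alone these log2 fold changes changed from negative to positive: Ccne1 WT 4 h against 0 h 0.71, Pola1 WT 24 h against 8 h 0.88, Pola2 KO 8 h against 0 h 0.33, Cdt1 and Pcna KO 24 h against 0 h 0.41 and 0.51, and Mcm5, Pold1 and Rfc4 KO 8 h against 4 h 0.69, 0.49 and 0.73. For all of these shifts the cause was not tested.

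Leaving out 1 library at a time, WT counts ranged from 19 to 32, 22 to 35 and 32 to 38 at 4, 8 and 24 h against 0 h, and from 5 to 11 in both later steps. KO counts ranged from 16 to 33, 16 to 34 and 7 to 33, then 4 (without library 19) to 12 and 0 to 3. Between genotypes they stayed at 0 at each time and for the interactions, and lay between 0 and 2 in the average, 2 without library 14. Upper-quartile scaling moved the median of all genes for KO 24 h against 0 h to -0.11. With 2 or 3 libraries a group, the simulated interaction at 4 h recovered 4.48% of genes changed 1.5-fold, 17.9% of those changed 2-fold and 69.7% of those changed 4-fold. These genes too were drawn from all genes, without library sets.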
